A study of Sus scrofa with 90 samples.

Results

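CKM encodes the muscle form of creatine kinase, and the array used for pig muscle lesions lists 29 features under this gene symbol (gene identifier 397264). Of these, 10 had a value in every column and are described here, while the other 19 had none in any column. The members were chosen by symbol and by the presence of values, not by their level. They are 10 of the 1908 features with complete values, out of 4608 listed. The symbols come from the platform's annotation table. Whether each symbol belongs to the feature it stands beside was not tested, so a feature is named below by its number on the feature list.

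Creatine kinase moves a phosphate group between phosphocreatine and ADP, so that ATP is remade where it is spent. The muscle form is a cytosolic enzyme that is abundant in fast fibres, and part of it is bound at the M band of the sarcomere, close to the myosin heads. Its escape from damaged fibres into the blood is a long-used sign of muscle injury.

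Expression was measured in the Longissimus dorsi muscle of piglets 6 h, 2 d, 7 d and 21 d after intramuscular injections of propylene glycol, in which some injected drugs are dissolved. Each of 10 pigs (C to L) carried lesions of different ages at sites placed at random, and muscle that received no injection served as control. The samples numbered 10 for control, 10 for the age of 6 h, 10 for 2 d, 9 for 7 d (none of pig J) and 9 for 21 d (none of pig L). All groups share the same animals, and the labels used here give no strain, exact age or sex.

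Some facts of the arrays come before the results. In pig F, the array of the 6 h lesion did not line up with the feature list. Its r with the mean array was 0.24 as listed and 0.739 after a move of 384 list places, over 910 features. It was left out, so 47 arrays were fitted, with 9 lesions at 6 h. Among the arrays kept, the lowest r as listed was 0.718, in the 21 d lesion of pig J. Pig J's 6 h lesion had a column that held the values of pig I's control, and that column was not used. Each array holds the features on duplicate parts, but 41 of the 42 pairs of columns were identical, so they give no spread within a sample. The p-values rest on the spread between muscle samples that is left once group and pig are fitted. The SD over the features of an array was larger in controls, at 0.976 ± 0.237 (SD, n = 10). It was 0.744 ± 0.0926 in the 6 h lesions (n = 9), 0.805 ± 0.0985 in those of 2 d (n = 10), 0.607 ± 0.158 in those of 7 d (n = 9) and 0.643 ± 0.196 in those of 21 d (n = 9). Values below are quantile-normalized, which gives every array the same spread, and are log values of a base that the sources used here do not give. A difference is the lesion's value less that of control, with the standard error (SE) of a limma fit in which the pig is a block. Each adjusted p is limma's, corrected over all 1908 features, and "called" means that it was below 0.05.

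No clone or probe sequence was used here, so the features are told apart by number only. The 10 features lie between list numbers 4780 and 7382 of a list that runs from 4609 to 9216. Another 9 features listed under CKM lie beyond 7382, and none of them had values. Of all 1834 features beyond that number, 20.9% had values, against 41.4% of the whole list and 34.5% of the 29 CKM features.

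Although they carry 1 symbol, the 10 features stood at very different levels in uninjured muscle. Feature 5072 was far above the others, with a control mean of 2.56 that ranked 27 among the 1908 features. Feature 5804 followed at 0.87, then 5806 at 0.55, 6100 at 0.40, 5794 at 0.37, 5091 at 0.24, 6528 at 0.21 and 7382 at 0.04. Features 4780 and 7246 had the lowest control means, at -0.08 and -0.24. The median over the 10 was 0.30, against 0.04 over all features, and 7 of the 10 were above that overall median. The length and position of each cDNA within the transcript are not used here, so these levels are not compared as amounts of RNA.

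**Figure D1:**
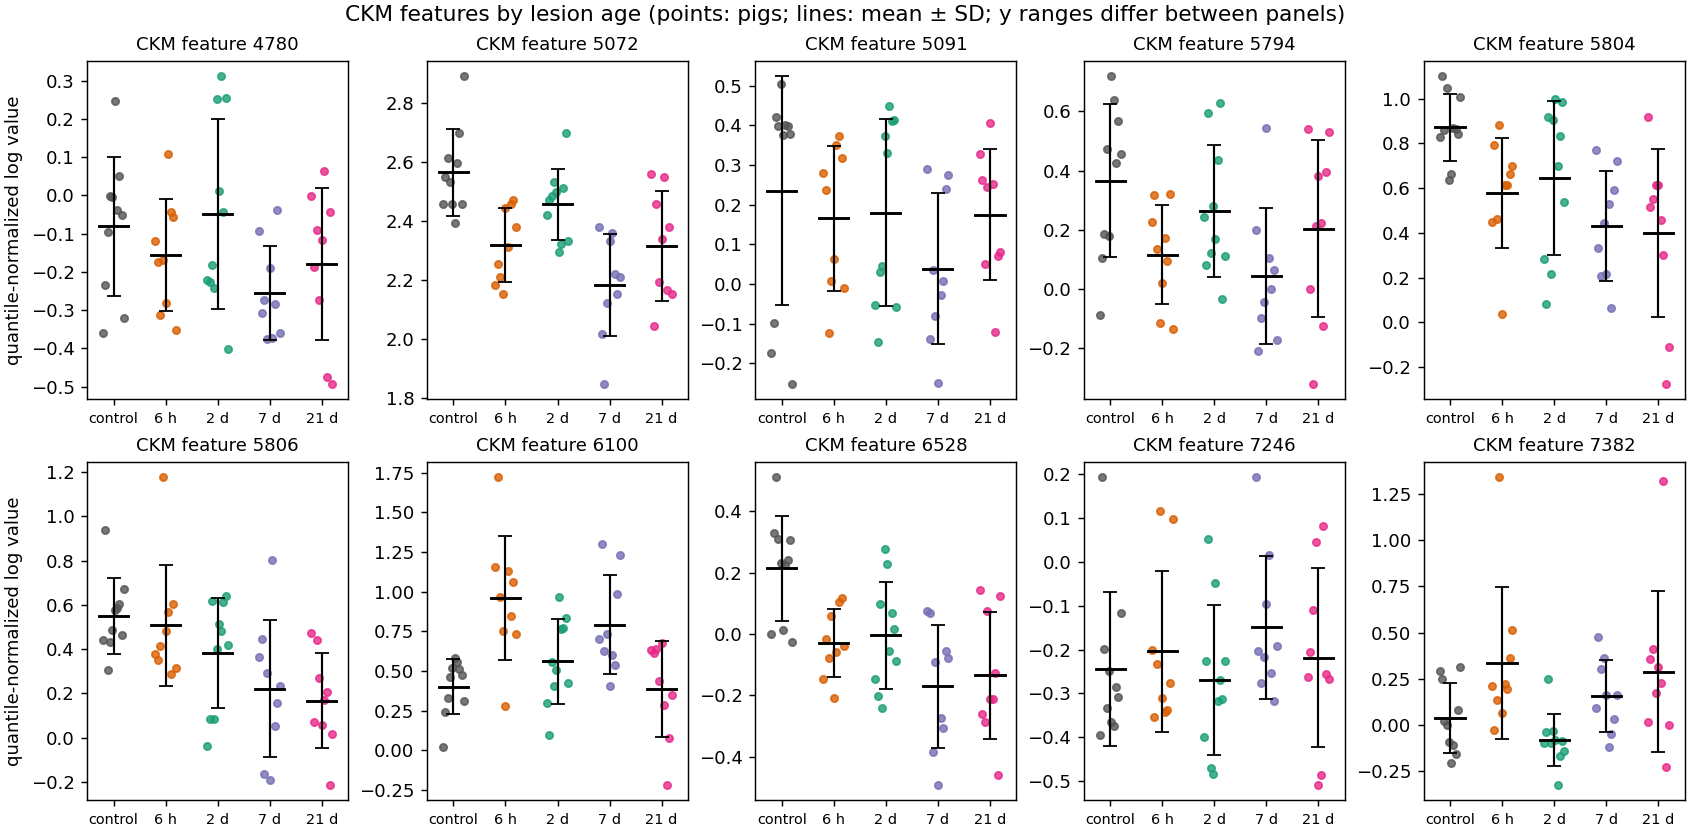
Quantile-normalized log value (y axis, a different range in each panel) of the 10 CKM features in control muscle and in lesions of 6 h, 2 d, 7 d and 21 d (x axis); points are pigs, and lines and bars are the mean and SD of 9 or 10 pigs. Feature 5072 falls from a mean of 2.56 in controls to 2.18 at 7 d, while feature 6100 is highest at 6 h, at 0.96.

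At 7 d, 6 of the 10 CKM features were called against control muscle, 5 lower and 1 higher. Features 5072, 5794, 5804, 5806 and 6528 fell and feature 6100 rose. By sign alone, called or not, 7 were lower and 3 higher, while 51.5% of all features were lower. Over all features 25.4% were called at 7 d, 14.6% as lower and 10.7% as higher. The median difference was -0.24 over the 10 CKM features and -0.0089 over all 1908. On the deposited values, before normalization, 5 of the 10 were called, all lower, beside 249 higher and 495 lower over all features (205 and 279 after normalization). Fewer muscle fibres in the sample and less CKM RNA in each fibre cannot be told apart in such whole-tissue samples.

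Feature 5072, the one with the highest level, had the smallest adjusted p at 7 d. Its values in controls ran from 2.39 to 2.89 with a median of 2.54, and at 7 d from 1.85 to 2.38 with a median of 2.21. The 7 d lesions were thus all below the controls, and the groups did not overlap, which held for 4.66% of all features. At 6 h, 2 d and 21 d, 0 of the 10 CKM features were apart from control in this way, against 2.46%, 0.262% and 1.42% of all features. The difference was -0.37 (SE 0.0765, adjusted p = 0.000321), lower in 9 of 9 pigs. Its rank from the top of the array had a median of 32.5 in controls and 60 at 7 d. On the deposited values the same difference was -1.33 (SE 0.246, adjusted p = 0.000100), lower in 7 of 9 pigs (higher in C and L), and the groups overlapped. The controls of pigs C and L had array SDs of 0.528 and 0.594, against 0.974 or more in the other 8 controls. Of 20 alternatives tried, 19 kept the call, and after a local trend along the feature list was subtracted the difference was -0.20 (adjusted p = 0.127).

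**Figure D2:**
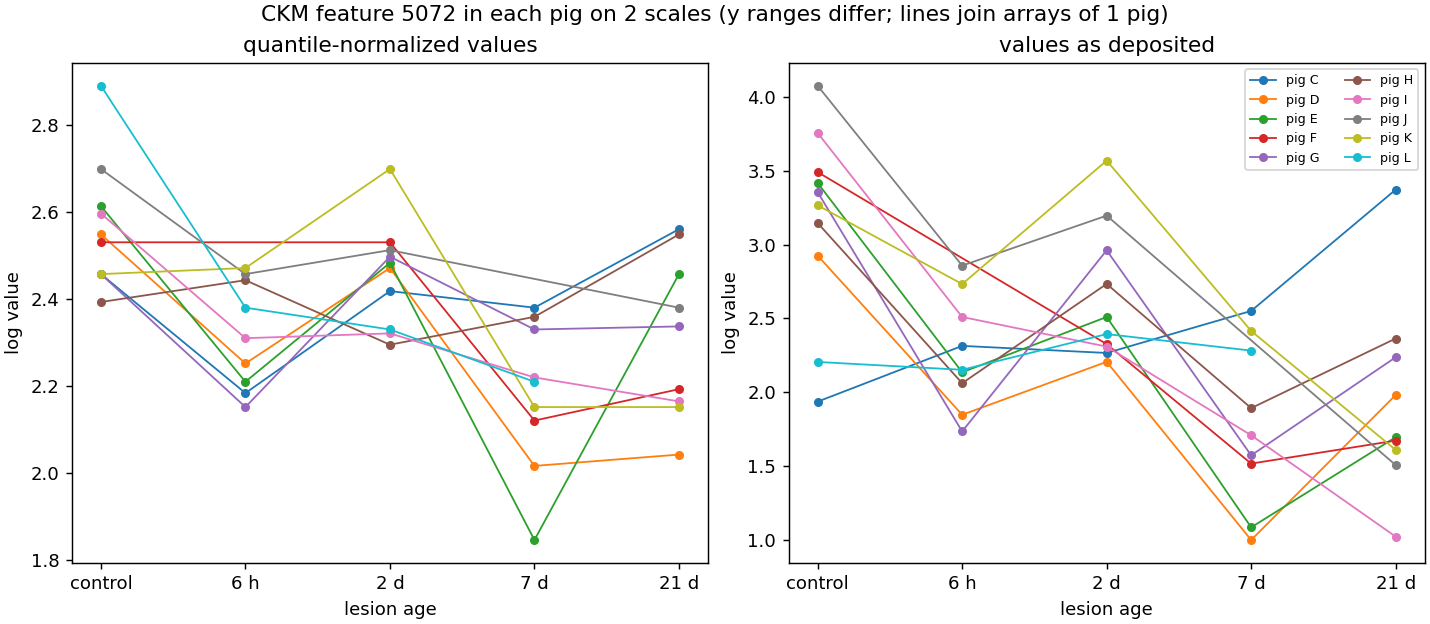
Log value of CKM feature 5072 in each pig (1 line per pig) over control, 6 h, 2 d, 7 d and 21 d, quantile-normalized on the left and as deposited on the right; the y ranges differ. After normalization all 9 pigs are lower at 7 d than in their own control, and on the deposited values 7 of 9 are.

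Features 5804 and 5806, which lie 2 places apart on the list, also fell at 7 d. Feature 5804 ran from 0.63 to 1.10 in controls (median 0.86) and from 0.065 to 0.77 at 7 d (median 0.44). The highest lesions reach the lowest controls, and the difference was -0.45 (SE 0.138, adjusted p = 0.0131), lower in 9 of 9 pigs. Feature 5806 ran from 0.31 to 0.94 in controls (median 0.53) and from -0.19 to 0.80 at 7 d (median 0.24). Its groups overlap more widely, with pig H high among the lesions, and the difference was -0.34 (SE 0.121, adjusted p = 0.0366), lower in 8 of 9 pigs. With the array SD in the model, CKM feature 5804 was at -0.20 and 5806 at -0.26 (adjusted p = 0.467 and 0.283), which was the only one of 20 alternatives that ended the call of 5804. The call of 5806 held under 10 of 20 and also ended when any 1 pig but C, F or H was left out (adjusted p up to 0.0948).

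Feature 6528 was low in level and fell by 0.39 at 7 d (SE 0.0886, adjusted p = 0.000973), in 8 of 9 pigs. It ran from -0.025 to 0.51 in controls (median 0.24) and from -0.49 to 0.075 at 7 d (median -0.09), so that the highest lesions reach the lowest controls. Feature 5794 fell by 0.31 (SE 0.112, adjusted p = 0.0406), in 7 of 9 pigs. Its values ran from -0.087 to 0.72 in controls (median 0.44) and from -0.21 to 0.55 at 7 d (median 0.00079), with pig G highest among the lesions. Of the 5 CKM features that fell, 5794 was called under the fewest alternatives, 8 of 20, and its call ended without pig D, E, F, H, I, K or L (adjusted p up to 0.109). With the array SD in the model 6528 was at -0.21 (adjusted p = 0.163), its only loss of the call in 20 alternatives, and 5794 at -0.19 (adjusted p = 0.393).

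CKM feature 6100 went the other way, rising by 0.39 at 7 d (SE 0.141, adjusted p = 0.0392) in 7 of 9 pigs. It ran from 0.023 to 0.58 in controls (median 0.47) and from 0.41 to 1.30 at 7 d (median 0.70). Before normalization its difference was 0.047 (adjusted p = 0.843), and the call also ended without pig C, D, E, F, K or L (adjusted p up to 0.12). With the 6 h array of pig F kept in the fit, 6100 was at 0.39 with an adjusted p of 0.0801, and 4 CKM features were called at 7 d, beside 393 of all features.

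The remaining 4 features were not called at 7 d. Feature 5091 differed by -0.18 (95% interval -0.39 to 0.023) and feature 4780 by -0.16 (-0.33 to 0.0073). Feature 7246 differed by 0.088 (-0.095 to 0.27) and feature 7382 by 0.094 (-0.18 to 0.36). These intervals leave room for falls as large as that of 5072 in 5091 only, whose lower bound passes its difference of -0.37.

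**Figure D3:**
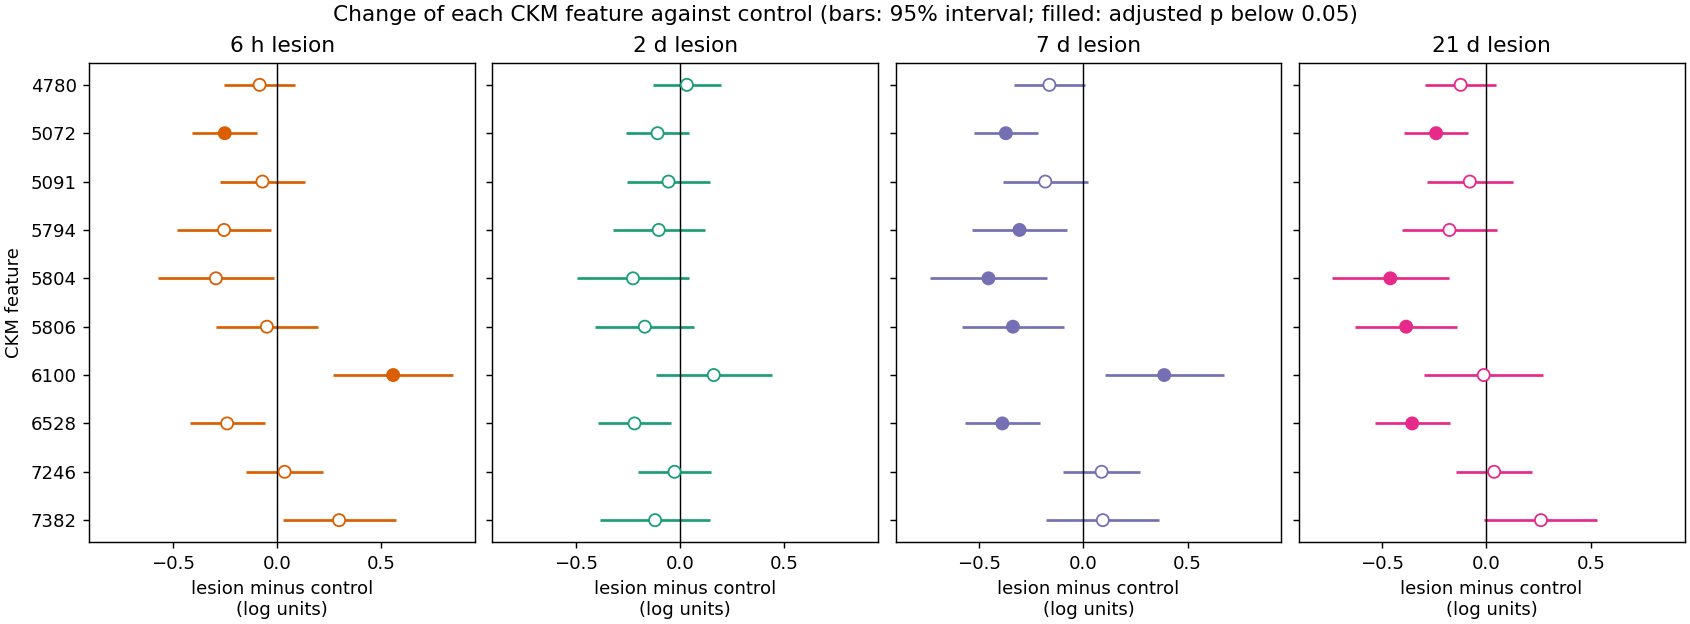
Lesion minus control in log units (x axis) for the 10 CKM features (y axis) at 6 h, 2 d, 7 d and 21 d; points are estimates of the fit, bars are 95% intervals, and filled points have an adjusted p below 0.05. The panels hold 2 filled points (6 h), 0 (2 d), 6 (7 d) and 4 (21 d), and feature 6100 is the one filled point to the right of 0, at 6 h and 7 d.

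At 21 d, 4 of the 10 CKM features were called lower than control, and none was called higher. These 4 were also called lower at 7 d. Both comparisons use the same control arrays, so they are not independent. The share of all features called lower at both ages was not taken, so the overlap is not read as particular to CKM. By sign alone 8 of the 10 were lower and 2 higher, while 50.2% of all features were lower. The called features were 5072, 5804, 5806 and 6528, against 14.7% of all features, 8.23% as lower and 6.5% as higher. The median difference was -0.15 over the CKM features and -0.00092 over all features. In feature 5804 the values at 21 d ran from -0.28 to 0.92 (median 0.52), with pig J lowest and pig C highest. The difference from control was -0.46 (SE 0.138, adjusted p = 0.0202), lower in 8 of 9 pigs. In feature 5806 they ran from -0.21 to 0.47 (median 0.17), and the difference was -0.38 (SE 0.121, adjusted p = 0.0274), lower in 7 of 9 pigs. Feature 6528 ran from -0.46 to 0.14 (median -0.21) and differed by -0.36 (SE 0.0886, adjusted p = 0.00517), lower in 8 of 9 pigs. Feature 5072 ran from 2.04 to 2.56 (median 2.34) and differed by -0.24 (SE 0.0765, adjusted p = 0.0291), lower in 7 of 9 pigs. All 4 overlapped with the controls. Before normalization 5 CKM features were called, all lower, beside 178 higher and 530 lower over all features (124 and 157 after normalization). Feature 5072 differed there by -1.24 and features 5804, 5806 and 6528 by -0.84, -0.60 and -0.44. With the array SD in the model 0 of the 10 were called by limma, beside 93 higher and 18 lower over all features, and the adjusted p of these 4 ran from 0.274 to 0.52. These 4 calls held under 10, 16, 14 and 19 of 20 alternatives for 5072, 5804, 5806 and 6528. The omission of a single pig was enough to lose 5072 (D, F, I, J, K or L), 5804 (I, J or K) and 5806 (D, I, J or K), with adjusted p up to 0.0967, 0.0798 and 0.0903, while 6528 was called whichever pig was left out (adjusted p up to 0.0274). The 21 d arrays of pigs I, J and K had r of 0.809, 0.718 and 0.904 with the mean array.

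Feature 6100, higher at 7 d, was not called at 21 d, with values from -0.22 to 0.68 (median 0.44) and a difference of -0.013 (95% interval -0.30 to 0.27). Feature 5794 differed by -0.18 (-0.40 to 0.05) and was not called. Feature 7382 differed by 0.26 (-0.0096 to 0.53, adjusted p = 0.201), with pig I far above the others at 1.32.

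At 6 h the CKM features were split. Of the 10, 1 was called lower and 1 higher, against 11.8% of all features called, 4.87% as lower and 6.92% as higher. By sign alone 7 were lower and 3 higher, while 54.2% of all features were lower. Feature 5072 ran from 2.15 to 2.47 at 6 h (median 2.31), partly overlapping the controls. It differed by -0.25 (SE 0.0765, adjusted p = 0.026), lower in 7 of 9 pigs. Feature 6100 ran from 0.28 to 1.72 (median 0.96), with pig H lowest and pig D highest. It rose by 0.56 (SE 0.141, adjusted p = 0.00686) in 8 of 9 pigs, the largest difference of any CKM feature at any age after normalization. The median difference was -0.077 over the CKM features and -0.016 over all features.

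Of the other features at 6 h, 6528 was lower than its own control in 9 of 9 pigs, by -0.24, without passing the test (adjusted p = 0.0714). Feature 5804 differed by -0.29 (adjusted p = 0.162), 5794 by -0.25 (adjusted p = 0.134) and 7382 by 0.30 (adjusted p = 0.143). On the deposited values 5 CKM features were called, 1 higher and 4 lower, beside 103 higher and 393 lower over all features (132 and 93 after normalization), and 6100 was not among them (0.37, adjusted p = 0.111). Those 5 were 5072 at -0.91, 5794 at -0.44, 5804 at -0.58, 6528 at -0.36 and 7382 at 0.32. With the 6 h array of pig F kept, 6100 was at 0.43 (adjusted p = 0.0587) and 6528 was called at -0.27 (adjusted p = 0.0404). The call of 6100 held under 17 of 20 alternatives and that of 5072 under 13. The latter ended without pig E, G, I or L (adjusted p up to 0.0701) and without pig J's 6 h lesion and pig I's control (-0.25, adjusted p = 0.0618). The call of 5072 also ended with the array SD in the model (-0.20, adjusted p = 0.147) and after a local trend was subtracted (-0.19, adjusted p = 0.196).

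At 2 d, 0 of 10 CKM features were called by limma, against 0.734% of all features (0.734% higher, 0% lower). The median difference was -0.11 over the CKM features and -0.021 over all features. Feature 6528 alone, 1 of 10, had an unadjusted p below 0.05, against 8.91% of all features. Its difference was -0.22 (SE 0.0856, unadjusted p = 0.0147, adjusted p = 0.355). Feature 5072 ran from 2.30 to 2.70 (median 2.48) and differed by -0.11 (95% interval -0.26 to 0.042). Feature 6100 ran from 0.098 to 0.97 (median 0.53) and differed by 0.16 (-0.12 to 0.44). The other 7 differences lay between -0.23 and 0.032.

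Between ages, 1 step was called in the 10 features. Feature 5072 was lower at 7 d than at 2 d by -0.26 (SE 0.0765, adjusted p = 0.0139), in 8 of 9 pigs, against 16.5% of all features called in that step, 7.02% as lower and 9.43% as higher. That call ended without pig E (adjusted p = 0.0712) and with the array SD in the model (-0.15, adjusted p = 0.33). It also ended after a local trend was subtracted and when only the groups compared were fitted. From 6 h to 2 d, 0 of 10 were called by limma, against 6.18% of all features, 4.66% as lower and 1.52% as higher. An unadjusted p below 0.05 was found in 2 of 10, against 17.9% of all features. These 2 were 6100 at -0.40 and 7382 at -0.42 (adjusted p = 0.0901 and 0.0534). From 7 d to 21 d, 0 of 10 were called by limma, against 0.681% (0.524% lower, 0.157% higher). There 6100 alone, 1 of 10, had an unadjusted p below 0.05, at -0.40 (adjusted p = 0.315), against 8.54% of all features. No CKM feature had groups apart without overlap in these 3 steps, against 1.36% of all features from 6 h to 2 d, 2.41% from 2 d to 7 d and 0.0524% from 7 d to 21 d.

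The order of the group means shows how far the features followed 1 course. Features 5072, 5091, 5794, 5804, 5806 and 6528 were highest in controls, and all of these were lowest at 7 d or 21 d. In feature 5072 the order was control, 2 d, 6 h, 21 d and 7 d, and of neighbouring groups only 2 d and 6 h differed by more than the larger of their SDs (0.14 against 0.12). Feature 6528 had the same order, with control and 2 d apart by more than the larger SD (0.22 against 0.17). In the other 8 features no neighbouring groups were that far apart. Feature 6100 ran from 6 h through 7 d, 2 d and control to 21 d, and feature 7382 from 6 h through 21 d, 7 d and control to 2 d. Features 4780, 5091 and 7246 spanned 0.21, 0.20 and 0.12 from the highest group mean to the lowest, less than the larger SD of those groups.

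To test whether the features differed in their response, feature 5072 was subtracted from every other feature of the same array and the fit was repeated. Feature 5072 served as reference because it had the highest mean. At 7 d, 3 of the other 9 CKM features changed differently from it, against 66.1% of the 1907 other features. These were 6100, apart by 0.76 (SE 0.16, adjusted p = 0.000177), 7382, apart by 0.46 (SE 0.157, adjusted p = 0.00997), and 7246, apart by 0.46 (SE 0.118, adjusted p = 0.00129). At 6 h they were 6100, apart by 0.81 (SE 0.16, adjusted p = 0.000237), and 7382, apart by 0.55 (SE 0.157, adjusted p = 0.00915), so 2 of 9 against 26.9%. At 21 d it was 7382, apart by 0.50 (SE 0.157, adjusted p = 0.0171), 1 of 9 against 31%. At 2 d it was 0 of 9 by limma, where the smallest unadjusted p was 0.0881, against 0.891%.

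The difference of 6100 from 5072 was called under all 20 alternatives at 6 h and at 7 d, with adjusted p up to 0.0027 and 0.00792. That of CKM feature 7382 was not called without pig G at 6 h (adjusted p = 0.0542), without pig E at 7 d (0.0513) or without pig I at 21 d (0.105), nor at any of these ages with the array SD in the model (0.37, 0.20 and 0.25) or after a local trend was subtracted (0.43, 0.22 and 0.34). That of 7246 at 7 d was 0.22 after a local trend was subtracted (adjusted p = 0.225). Features 5794, 5804, 5806 and 6528 differed from the change of 5072 at 7 d by at most 0.083 in either direction. On the deposited values, where 5072 differed from control by -0.91, -1.33 and -1.24 at 6 h, 7 d and 21 d, the counts were 8 of 9 at 6 h and 9 of 9 at 7 d and 21 d. The share of all other features under that setting was not taken, so these counts are not read as particular to CKM.

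Across the 47 arrays the CKM features were only loosely related. As a description, the 45 pairs had Pearson r from -0.49 to 0.738 with a median of 0.20, and 32 of the pairs were above 0. Spearman's rho had a median of 0.22. Over all pairs of the 1908 features the median r was -0.0132, and 48.2% were above 0. All these values share the same arrays, pigs and normalization. After the group means were subtracted the median over the CKM pairs was 0.18. The highest r were between 4780 and 5091 (0.738), 5804 and 6528 (0.701), 5804 and 5806 (0.696), and 5806 and 6528 (0.545). Among the 5 features that fell at 7 d, all 10 pairs were above 0, with a median r of 0.40, which was 0.17 after the group means were subtracted. That set was chosen by its fall, so its shared course over the groups is no separate finding. Feature 7382 was negatively related to 5794 (r = -0.49), 4780 (-0.40), 5091 (-0.38) and 5072 (-0.34), and positively to 7246 (0.458).

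**Figure D4:**
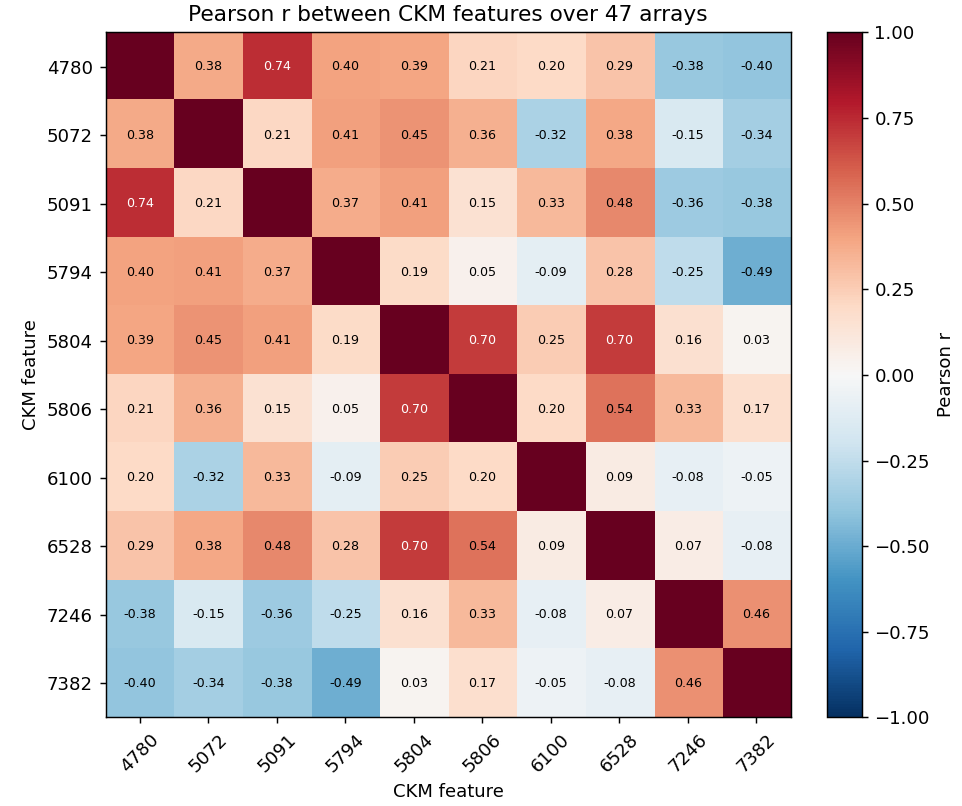
Pearson r (colour, from -1 to 1, and printed in each cell) between each pair of the 10 CKM features (both axes) over the 47 arrays. Features 5804, 5806 and 6528 form a block with r from 0.545 to 0.701, and features 7246 and 7382 are at or below -0.15 with 5072, 4780, 5091 and 5794.

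For the 4 other symbols with 5 or more features the median r was lower. The median pairwise r was 0.00078 over 18 features of MYLPF, the fast regulatory myosin light chain, and 0.046 over 12 features of TNNC2, fast troponin C. It was -0.14 over 7 features of ACTB, cytoplasmic actin, and -0.089 over 5 features of GAPDH, a glycolytic enzyme. The highest r of a pair was 0.79 for ACTB, 0.737 for MYLPF, 0.617 for TNNC2 and 0.428 for GAPDH, beside 0.738 for CKM. Whether the CKM features differ from these sets in their agreement was not tested.

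The genes whose course was most like that of feature 5072 were COX7A1, SLC35A4 and POMGNT1, by Pearson r over 47 arrays among the 120 other genes with a symbol. COX7A1, a muscle subunit of cytochrome oxidase, was at r = 0.623 (rho 0.621, and 0.448 after the group means were subtracted). SLC35A4, a member of a nucleotide sugar transporter family, was at r = 0.596 (rho 0.647, then 0.364), and POMGNT1, which glycosylates dystroglycan, was at r = 0.586 (rho 0.676, then 0.319). The mean of COX7A1 was 1.21 in controls and 0.86 at 7 d, that of SLC35A4 1.94 and 1.54, and that of POMGNT1 1.44 and 0.91. Of all 1907 other features, the CKM feature most like 5072 was 5804, which ranked 139 at r = 0.453, followed by 5794 at 180 (r = 0.41). Features 6100 and 7382 ranked 1647 and 1668, with r of -0.32 and -0.34.

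No other gene of creatine metabolism could be set beside CKM. None of the 8 symbols listed for it (among them CKB, CKMT2, GAMT, GATM and SLC6A8) carried a tested feature, nor did any of 12 for adenylate kinases and the purine nucleotide cycle or of 7 for the M band. Of 19 glycolysis and glycogen genes 8 were measured. TPI1, which interconverts the triose phosphates, fell by 0.40 at 7 d (adjusted p = 0.000463), and UGP2, the enzyme that supplies UDP-glucose to glycogen synthesis, rose at 6 h, 7 d and 21 d (0.43, 0.68 and 0.49, adjusted p = 0.0299, 0.000174 and 0.0101). PFKM, phosphofructokinase, was at -0.31 at 7 d (adjusted p = 0.0558) and GAPDH at -0.53 at 6 h (adjusted p = 0.104), neither called. These values are those of 1 feature, of 2 for PFKM and of 5 for GAPDH.

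Of 13 genes of the fast fibre sarcomere, in which the enzyme is abundant, 8 were measured and 0 were called by limma at any age, with 0 at an unadjusted p below 0.05. Their median difference was 0.09 at 6 h and 0.02 at 2 d, then 0.03 (7 d) and -0.019 (21 d). Over all features 11.8%, 0.734%, 25.4% and 14.7% were called at these ages. An unadjusted p below 0.05 was found at these ages in 27%, 8.91%, 34.9% and 26.9% of all features. Each gene stands here by 1 feature, of 18 for MYLPF, 12 for TNNC2 and 4 for MYH1, and the others were not followed. The MYLPF feature was at -0.30 at 6 h, -0.27 at 7 d and -0.34 at 21 d (SE 0.23). The TNNC2 feature was at 0.33, 0.027 and -0.12 (SE 0.30), so changes of such size were not resolved. The smallest adjusted p were those of MYH1, a fast myosin heavy chain, at 0.25 at 21 d (adjusted p = 0.191), TNNI2, fast troponin I, at 0.088 at 7 d (0.286), MYL1, a fast myosin light chain, at -0.12 at 21 d (0.32), and MYH2, another fast myosin heavy chain, at 0.16 at 6 h (0.347). Of 5 measured genes for pumps and motors that spend ATP, MYH7, the slow myosin heavy chain, was called. Its feature with the highest mean, 1 of 4, rose by 0.36 at 6 h, 0.47 at 7 d and 0.37 at 21 d (adjusted p = 0.00692, 0.000163 and 0.00491). ATP2A2, the slow calcium pump, was at -0.27 at 7 d (adjusted p = 0.0709).

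Markers of muscle fibres were present, with 8 of 12 measured and, by 1 feature a gene, MYH7 alone called. No marker listed for neutrophils, macrophages, lymphocytes, fibroblasts, satellite cells and regenerating fibres, erythrocytes or adipocytes carried a tested feature. Of 3 endothelial markers PECAM1 was measured, and it differed by -0.094 (6 h), -0.07 (2 d), -0.063 (7 d) and -0.068 (21 d), not called (adjusted p from 0.621 to 0.792). The part of other cell types in the CKM differences was therefore not tested.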

How the data were processed

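The values come from the series' value table, with 90 columns for 48 muscle samples. Per the series' design text, each sample's cDNA, labelled with a phosphorus isotope, was put on its own array with duplicate parts, and spots were measured from phosphor images with a set spot size. What the authors deposited has the range of log values. These run from -1.33 to 5.00, and their base, centring and background correction are not given in the sources used here. Arrays carry no counts, so their number limits the precision.

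The columns of a sample were averaged, the 47 arrays in register were quantile-normalized (array medians spanned 0.112), and limma 3.58.1 in R 4.3.3 was fitted with group and pig over all 5 groups. The pig was a fixed block because the samples of a letter come from 1 animal; the median correlation of deviations was -0.0236 within pigs and -0.00355 between pigs. The p-values are two-sided, with Benjamini-Hochberg correction over 1908 features. The fit was tested on simulated data. Of 510 annotated probes 509 carry 1 symbol and 1 carries several, and 206 tested features carry a symbol, for 121 genes; the gene identifier of CKM matched the RefSeq table. All CKM features are named. From each gene list up to 4 genes with the smallest adjusted p are named, using the feature with the highest mean, and the 3 genes with the highest r with feature 5072. For agreement, all symbols with 5 or more features are given. The members, lists and the choice to leave out the 6 h array of pig F were made with earlier results of these data known. Alternatives covered that array, the copied column, scaling, array SD, the block, a local trend (running median over 101 features), the samples fitted, the lowest 25% of features and each pig. Figures were drawn with matplotlib 3.10.9.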

Additional observations from a re-analysis of the deposited data

Results flagged for a closer look

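Among the 50 sets of values checked (10 CKM features in 5 groups), 5 held a sample far from the others; chance flags about 1 in 20 such sets. Pig G at 6 h stood at 1.18 in feature 5806, with the other lesions from 0.29 to 0.61. The same array stood at 1.34 in feature 7382, with the others from -0.027 to 0.51. Feature 7382 also held pig I at 21 d, at 1.32 with the others from -0.22 to 0.41, and pig E at 2 d, at 0.25 with the others from -0.32 to -0.03. In feature 7246 the control of pig D stood at 0.19, with the others from -0.39 to -0.12.

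The response of feature 5072 differed between 2 lesion ages, being lower at 7 d than at 2 d by -0.26. In that step 16.5% of all features were called. The call of 5072 ended without pig E, with the array SD in the model, after a local trend was subtracted and when only the groups compared were fitted.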

How the results depend on the processing

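Of the 12 CKM differences from control that were called, none changed sign under the 20 alternatives. All 12 were called without the pig as a block (no replicate block), with the pig as a random block and with the lowest 25% of features left out. With the array SD as a covariate 3 of 12 were called, and after subtraction of a local trend 6 of 12. Leaving out 1 pig in turn kept 83 of 120 calls. The share of the calls of all features that was kept under these settings was not taken, so these counts are not read as particular to CKM.

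The counts of called CKM features moved as follows. At 6 h (2 called) the count was 5 on deposited and on median-centred values, 4 with only the groups compared, and 1 with the array SD, with the local trend subtracted or without pig J's lesion and pig I's control. Over all features the calls at 6 h went from 225 to 496, 518, 252, 162, 170 and 148, in the order named. At 7 d (6 called) it was 2 with the array SD and 3 with the local trend subtracted, and at 21 d (4 called) 0 and 2. Over all features the calls at 7 d went from 484 to 265 and 402 under these settings, and those at 21 d from 281 to 111 and 167. For 2 d against 6 h (0 called) it was 1 with pig F's array kept, on deposited or median-centred values, with the array SD, with no replicate block, with the local trend subtracted and with the lowest features left out. Over all features the calls in that step went from 118 to 88, 40, 43, 144, 125 and 121, and to 118 of 1431 features, in the order named. For 7 d against 2 d (1 called) it was 0 with the array SD, with the local trend subtracted and with only the groups compared. Over all features the calls in that step went from 314 to 298, 279 and 209. With 1 pig left out the counts ran from 1 to 2 at 6 h, 3 to 5 at 7 d, 1 to 4 at 21 d, 0 to 1 for 2 d against 6 h and 0 to 1 for 7 d against 2 d. Over all features they then ran from 151 to 257 at 6 h, 369 to 491 at 7 d and 169 to 325 at 21 d. For the 2 steps they ran from 90 to 133 and from 218 to 312.

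CKM features that changed differently from feature 5072 numbered 8 of 9 at 6 h and 9 of 9 at 7 d and 21 d on deposited and on median-centred values. For none of the alternatives in this paragraph was the share of all other features taken. At 6 h (2 called) they were 4 with pig F's array kept and 1 with the array SD or the local trend. At 7 d (3 called) they were 1 with the local trend. At 21 d (1 called) they were 2 with no replicate block and 0 with the array SD, with the local trend or with only the groups compared. With 1 pig left out they ran from 1 to 4 at 6 h, 2 to 4 at 7 d and 0 to 2 at 21 d. The precision is limited by the 9 or 10 arrays a group. The cause was not tested for any of these moves.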

Other observations

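The array spread moved with most CKM features. Whether it moved likewise with the other features of the array was not tested. As a description over the 47 arrays, r between the normalized value and the SD of the array was from 0.37 to 0.67 in features 4780, 5072, 5091, 5794, 5804, 5806 and 6528, 0.025 in 6100, -0.20 in 7246 and -0.43 in 7382. After the group means were subtracted it was highest in 5091, at 0.70, then in 4780, at 0.51, and it was 0.27 in 5072. Features 4780 and 5091 were also the CKM pair with the highest r, 0.738. The part of the array SD in the lesion differences was not tested beyond the fit that holds it as a covariate.

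On the deposited values the lesions of pig C were above its control at all 4 ages in CKM features 5072, 5091, 5794, 5804 and 6100. Its control array had the lowest SD of the 10 controls, 0.528.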
